A study of Mus musculus with 12 samples.

Results

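The 7 surface proteins examined, through which macrophages exchange signals with T cells, were followed here at the level of their transcripts: Pdcd1lg2, Cd274, Cd80, Cd86, Icosl, Cd276 and Cd40. They were chosen by gene symbol, and all 7 were found among the 34327 genes of the table, each under 1 identifier and each above the minimum mean level used for testing. The libraries came from bone marrow-derived macrophages (BMDMs), cells grown from wild-type C57BL/6J mouse marrow in medium conditioned by L929 cells. The cells were kept for 24 hours on tissue culture (TC) plates or embedded in floating 3-dimensional gels of rat tail collagen I labelled 2mg (low collagen) or 7mg (high collagen), each untreated or with interleukin-4 (IL-4) at 20 ng/ml. This gave 6 conditions of 2 libraries each, 12 in all, and no condition carried a genetic change. The comparisons ask how IL-4, the amount of collagen and the change from plate to gel bear on these transcripts. Plates and gels differ in geometry, stiffness, collagen and handling at once, and these cannot be told apart. The study reports that gels of high and low collagen also differ in stiffness and pore size. In these libraries those properties cannot be told apart from the amount of collagen.

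T cells need a second signal beside the antigen receptor, and macrophages and dendritic cells supply it through the B7 family. CD80 and CD86 bind CD28, which activates the T cell, and CTLA-4, which restrains it, whereas ICOSL binds ICOS and sustains helper T cells. PD-L1, encoded by Cd274, and PD-L2, encoded by Pdcd1lg2, bind PD-1 and dampen the response, and B7-H3, encoded by Cd276, has been described with both activating and inhibitory effects. CD40 is the odd member, a receptor of the TNF receptor superfamily on the macrophage that is engaged by CD40 ligand on helper T cells. IL-4 acts on macrophages through its receptor and the transcription factor STAT6 and drives the state associated with tissue repair, of which PD-L2 is a known surface marker in mice.

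Levels are given in TPM, transcript abundances corrected for transcript length and scaled to a fixed total in each library, so that they can be compared between genes. TPM carry no read depth, so no counting error or detection limit can be given, and a listed 0 is only a listed 0. The totals over all genes were 997505 to 997977 TPM per library, 11543 to 11910 genes reached 1 TPM, and replicates correlated at 0.980 to 0.985 on the log2(TPM + 1) scale. All 8 macrophage markers examined were expressed in every library, with a summed level of 43329 to 53953 TPM in untreated gels, 30713 to 37695 TPM in IL-4 gels, 27984 to 28590 TPM on untreated plates and 17541 TPM in both plate libraries with IL-4. Lyz2 alone made 75.4% to 90.9% of that sum, and on each substrate 6 of the 8 markers were lower with IL-4 while Adgre1 and Cd68 were higher, with ranges that did not overlap. Of 8 dendritic cell markers only Itgax had a mean of 1 TPM or more. The summed dendritic list was higher with IL-4, going from 13.9 to 14.5 TPM to 131 to 139 TPM on plates, from 3.76 to 5.24 TPM to 89.0 to 96.3 TPM in low-collagen gels and from 3.68 to 3.77 TPM to 47.4 to 55.8 TPM in high-collagen gels, while Flt3, Zbtb46, Ccr7, Cd209a, Xcr1, Clec9a and Siglech stayed below 1 TPM in every library. The summed T cell list was 2.36 to 12.4 TPM and the summed B cell list 1.05 to 6.84 TPM. Both were higher in all gel libraries than on plates, and in gels they were carried mostly by Cd4 and Cd79b. Neutrophil markers summed to 5.15 to 9.67 TPM on plates and 14.3 to 31.1 TPM in gels. Of these 6 markers 2 had a mean of 1 TPM or more, and Ly6g was at 0. Fibroblast markers summed to at most 0.641 TPM. The part of these marker lists in the results below was not tested, and in such bulk RNA fewer cells of a type and less RNA per cell cannot be told apart.

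The genes for the PD-1 ligands are neighbours. In the GENCODE annotation of GRCm38, Cd274 lies at chr19:29367455-29388095 and Pdcd1lg2 at chr19:29410919-29471161, both on the plus strand, with 22823 bases and no whole annotated gene between them. The promoters of this pair, which rose together with IL-4 but from very different starting levels, are shown with that of Icosl, which fell. The sequences are from RefSeq on GRCm38.p6 and run from 250 bases before to 50 bases after the RefSeq start of each gene, on the plus strand in all 3. The windows are chr19:29410669-29410968 for Pdcd1lg2, chr19:29367188-29367487 for Cd274 and chr10:78069118-78069417 for Icosl. Capitals mark TTC and GAA separated by 4 bases, the palindrome that STAT6 prefers, or GGGA and CC separated by 4 bases, a core of NF-kB sites. The NF-kB core may lie on either strand, and in Pdcd1lg2 it reads on the strand opposite to the one shown.
Pdcd1lg2: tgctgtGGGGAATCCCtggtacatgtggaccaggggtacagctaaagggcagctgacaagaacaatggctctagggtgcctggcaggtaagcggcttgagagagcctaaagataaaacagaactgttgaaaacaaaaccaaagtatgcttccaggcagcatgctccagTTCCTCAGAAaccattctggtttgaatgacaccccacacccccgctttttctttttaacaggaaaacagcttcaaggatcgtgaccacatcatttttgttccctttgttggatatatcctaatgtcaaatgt
Cd274: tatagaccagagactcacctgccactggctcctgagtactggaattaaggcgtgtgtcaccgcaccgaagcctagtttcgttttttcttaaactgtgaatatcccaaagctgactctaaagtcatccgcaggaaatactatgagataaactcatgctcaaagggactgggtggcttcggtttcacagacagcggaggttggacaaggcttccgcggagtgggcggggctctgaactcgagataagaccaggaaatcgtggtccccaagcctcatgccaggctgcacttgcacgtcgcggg
Icosl: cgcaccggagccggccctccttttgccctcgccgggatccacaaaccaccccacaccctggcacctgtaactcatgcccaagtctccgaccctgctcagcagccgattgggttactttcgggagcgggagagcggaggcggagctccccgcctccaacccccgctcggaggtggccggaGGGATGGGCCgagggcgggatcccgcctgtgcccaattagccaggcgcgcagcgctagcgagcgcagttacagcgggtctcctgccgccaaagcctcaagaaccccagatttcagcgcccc

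A set of 4 motifs was searched on both strands. They were TTC and GAA with 4 bases between them, the related STAT spacing with 3 bases between them, the interferon response core of GAAA and GAAA with 2 bases between them, and the NF-kB core above. RefSeq promoters were given for 5 of the 7 genes, and Cd86 and Cd40 were not searched. The STAT6 spacing was found once, in Pdcd1lg2, with its first base at position -82 from the start, and 6.94% of all 32817 promoters of this length hold it. The NF-kB core was found at position -244 in Pdcd1lg2, -71 in Icosl and -210 in Cd80, against 20.7% of all promoters. Positions count from the RefSeq start, which need not be the GENCODE one. The windows of Cd80 (chr16:38458683-38458982) and Cd276 (chr9:58554984-58555283) lie wholly inside the GENCODE genes. The Cd80 match is thus placed from a start within that gene. The spacing of 3 (8.29% of promoters) and the interferon core (3.43%) were found in none of the 5, Cd274 and Cd276 had no match to any of the 4, and no match overlapped another. A match describes these letters only, not a bound site or a cause. The windows differed in base composition, from 46.0% G and C in Pdcd1lg2 over 49.7% in Cd80, 52.7% in Cd274 and 68.0% in Icosl to 78.3% in Cd276, beside a median of 52.7% over all promoters.

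With IL-4 the repertoire turned from Icosl toward the PD-1 ligands and Cd40 on every substrate. Cd274, Pdcd1lg2 and Cd40 rose and Icosl fell on plates and in both gels, whereas Cd86 fell on plates alone. Changes were tested with limma on log2(TPM + 1) across all genes and were called at a Benjamini-Hochberg adjusted p under 0.2. The study set the same threshold on another test, Sleuth, so these calls need not match its own. In low-collagen gels 5 of the 7 genes were called, where 53.6% of all tested genes were. Of these 3 rose and 2 fell, beside 13.2% of all genes higher and 40.4% lower, a split that became 23.2% and 21.5% when each library was rescaled by the median ratio. In high-collagen gels 6 of 7 were called against 34.3% of all genes, 4 up and 2 down beside 11.5% and 22.8% (16.6% and 15% rescaled). On plates 5 of 7 were called against 38.8%, 3 up and 2 down beside 14.7% and 24% (18.8% and 20.3% rescaled). The IL-4 and untreated ranges did not overlap for 5 of 7 genes in low-collagen gels, 6 in high-collagen gels and 7 on plates, beside 68.4%, 61.3% and 62.7% of all genes. The median absolute log2 change of the 7 genes was 1.78 in low-collagen gels, 1.25 in high-collagen gels and 1.53 on plates, beside 0.29, 0.21 and 0.21 over all genes.

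**Figure D1:**
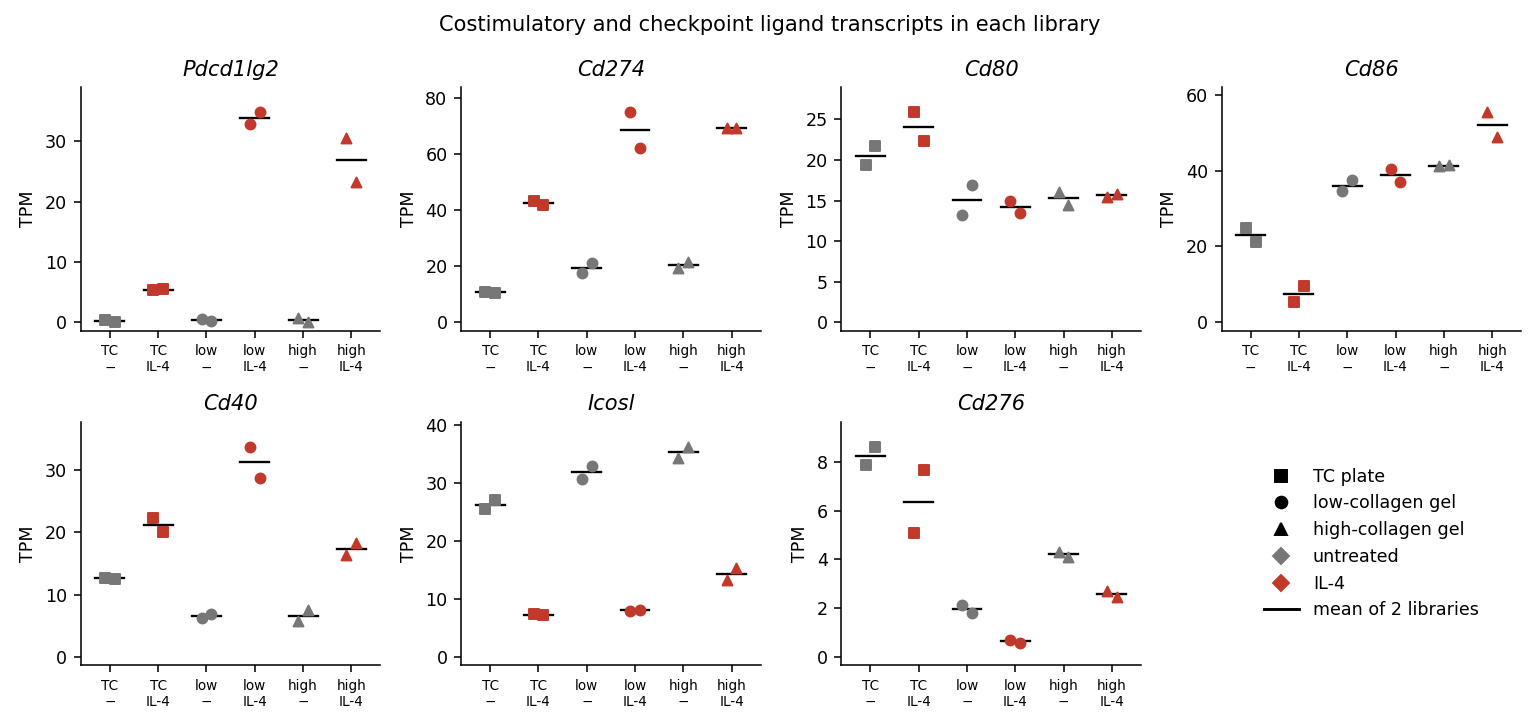
TPM of the 7 transcripts (y axes, one panel per gene) in each library, by condition on the x axes (TC plates, low- and high-collagen gels, without or with IL-4); points are libraries and bars the means of 2. Pdcd1lg2 is at or below 0.711 TPM in every untreated library, Cd86 is lower with IL-4 on TC plates and not in gels, and Cd276 is highest on plates.

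Pdcd1lg2 had the largest rise of the 7 genes with IL-4 on each substrate. Its level was 0.292 and 0.105 TPM on untreated plates, 0.584 and 0.180 TPM in untreated low-collagen gels, and 0.711 and 0 TPM in untreated high-collagen gels. With IL-4 it was 5.30 and 5.47 TPM on plates, 32.9 and 34.8 TPM in low-collagen gels, and 30.5 and 23.2 TPM in high-collagen gels. The untreated groups overlapped each other and lay near the bottom of the scale, and the 3 IL-4 groups overlapped neither them nor each other. The log2 change of TPM + 1 was 4.67 (SE 0.28, limma adjusted p = 2.16e-05) in low-collagen gels, 4.40 (SE 0.28, limma adjusted p = 4.44e-05) in high-collagen gels and 2.42 (SE 0.26, limma adjusted p = 0.000114) on plates. Because the untreated levels were so low, these sizes follow the pseudocount, and with 0.1 in place of 1 they were 6.28, 6.55 and 4.27.

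Cd274 rose by nearly the same factor wherever it was measured. On plates it went from 10.8 and 10.52 TPM to 43.3 and 42.0 TPM, in low-collagen gels from 17.4 and 20.9999 TPM to 74.9 and 62.0 TPM, and in high-collagen gels from 19.3 and 21.5 TPM to 69.4 and 69.2 TPM. No IL-4 library overlapped an untreated one. The log2 changes were 1.91 (SE 0.11, limma adjusted p = 1.96e-06), 1.78 (SE 0.12, limma adjusted p = 4.66e-05) and 1.72 (SE 0.12, limma adjusted p = 8.81e-05) in the same order. The difference of these responses from plate to gel was -0.13 (95% interval -0.48 to 0.23) for low collagen and -0.19 (-0.55 to 0.17) for high collagen, and neither was called by limma (adjusted p = 0.652 and 0.569).

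The share of Pdcd1lg2 among the PD-1 ligands was highest in gels with IL-4. The ratio of Pdcd1lg2 to Cd274 TPM within a library was at most 0.0369 in the 6 untreated libraries. With IL-4 it was 0.122 and 0.130 on plates, 0.440 and 0.561 in low-collagen gels, and 0.440 and 0.335 in high-collagen gels. All 4 gel libraries with IL-4 were above both plate libraries, and the lower value in low collagen was level with the higher value in high collagen to 3 digits. With 2 libraries against 2, an exact permutation test of a single ratio cannot go below p = 0.333, so none was run.

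**Figure D2:**
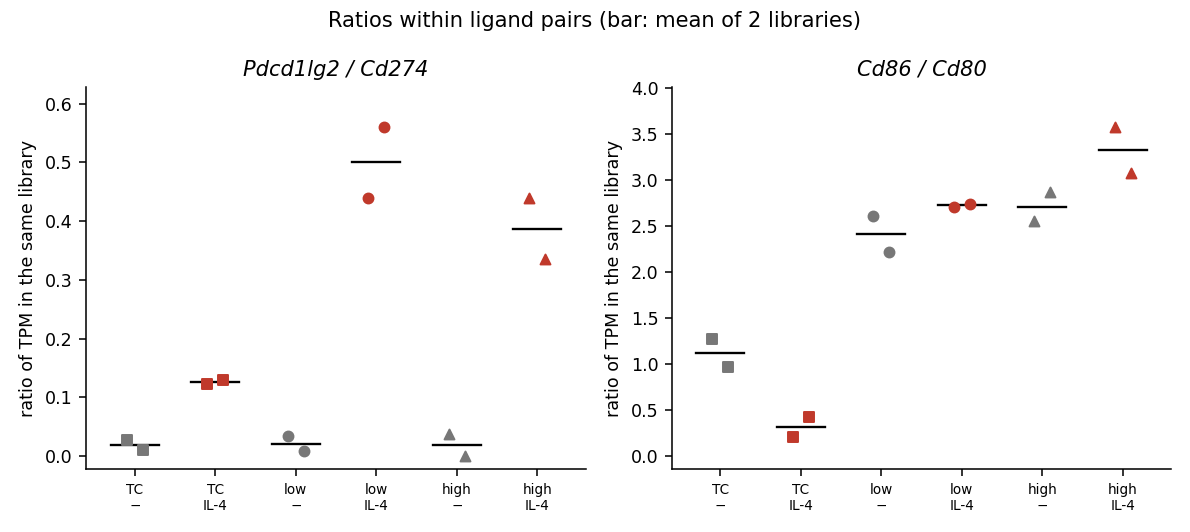
Ratio of TPM within each library for Pdcd1lg2 over Cd274 (left) and Cd86 over Cd80 (right), by condition on the x axes; points are libraries and bars the means of 2. With IL-4, Pdcd1lg2 over Cd274 is 0.122 to 0.130 on plates and 0.335 to 0.561 in gels, and Cd86 over Cd80 is 0.210 to 0.429 on plates and 2.71 to 3.58 in gels.

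Cd80 and Cd86, both ligands of CD28 and CTLA-4, did not move together. Cd86 was 24.7 and 21.1 TPM on untreated plates and fell to 5.44 and 9.59 TPM with IL-4, a log2 change of -1.53 (SE 0.19, limma adjusted p = 0.000301). In low-collagen gels it was 34.6 and 37.5 TPM without and 40.5 and 37.1 TPM with IL-4, overlapping ranges, with a log2 change of 0.10 (95% interval -0.11 to 0.32, limma adjusted p = 0.425). This was called as a rise after median-ratio (0.30, adjusted p = 0.0415) and quantile rescaling (0.28, adjusted p = 0.0614). In high-collagen gels it was 41.2 and 41.5 TPM without and 55.3 and 48.9 TPM with IL-4, a rise of 0.32 on the log2 scale (SE 0.09, limma adjusted p = 0.0535) that was lost without the first IL-4 library (0.24, adjusted p = 0.266) and with all 12 libraries in the limma fit (adjusted p = 0.273). Cd86 was the only one of the 7 with a negative change on plates and positive changes in both gels.

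Cd80 varied least. It was 19.4 and 21.8 TPM on untreated plates and 25.9 and 22.3 TPM with IL-4. In low-collagen gels it was 13.2 and 16.9 TPM without and 14.97 and 13.5 TPM with IL-4, and in high-collagen gels 16.1 and 14.4 TPM without and 15.4 and 15.9 TPM with IL-4. The 8 gel libraries lay below all 4 plate libraries, and each gel condition overlapped its neighbours in the order of means. The IL-4 changes were 0.22 (95% interval -0.08 to 0.51) on plates, -0.07 (-0.38 to 0.25) in low-collagen gels and 0.04 (-0.28 to 0.35) in high-collagen gels, none of them called by limma (adjusted p = 0.2795, 0.728 and 0.887). The plate value was called after either rescaling of the libraries, with limma adjusted p = 0.129 and 0.104.

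As a result the ratio of Cd86 to Cd80 was 1.28 and 0.972 on untreated plates, 0.210 and 0.429 on plates with IL-4 and 2.22 to 3.58 in all 8 gel libraries. The genes lie on chromosome 16, Cd86 at chr16:36603869-36666081 on the minus strand and Cd80 at chr16:38455561-38496335 on the plus strand, with 46 annotated genes between them.

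Icosl, the ligand of ICOS, was among the most abundant of the 7 transcripts without IL-4 and fell on every substrate with it. Its level was 25.6 and 27.04 TPM on untreated plates and 7.33 and 7.24 TPM with IL-4. In low-collagen gels it fell from 30.8 and 33.0 TPM to 7.90 and 8.12 TPM, and in high-collagen gels from 34.4 and 36.2 TPM to 13.3 and 15.4 TPM. No condition overlapped another. Of the macrophage markers above 6 were also lower with IL-4 on each substrate, and Adgre1 and Cd68 were higher. The log2 changes were -1.72 (SE 0.10, limma adjusted p = 1.28e-06) on plates, -1.87 (SE 0.10, limma adjusted p = 1.50e-05) in low-collagen gels and -1.25 (SE 0.10, limma adjusted p = 0.000188) in high-collagen gels. The gene lies at chr10:78069302-78083913 on the plus strand.

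Cd40, at chr2:165055627-165072948 on the plus strand, ran opposite to Icosl. On plates it rose from 12.7 and 12.5 TPM to 22.3 and 20.1 TPM, in low-collagen gels from 6.23 and 6.87 TPM to 33.7 and 28.8 TPM, and in high-collagen gels from 5.75 and 7.49 TPM to 16.3 and 18.3 TPM. Untreated gels of both kinds lay below the plates, and the low-collagen gels with IL-4 lay above every other library. The log2 changes were 0.70 (SE 0.14, limma adjusted p = 0.00420) on plates, 2.09 (SE 0.15, limma adjusted p = 5.24e-05) in low-collagen gels and 1.27 (SE 0.15, limma adjusted p = 0.00106) in high-collagen gels.

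Cd276 was the least abundant of the 7 in gels with IL-4 and was lower in every gel library than in every plate library. It was 7.89 and 8.62 TPM on untreated plates and 5.09 and 7.68 TPM with IL-4, a change of -0.35 on the log2 scale (95% interval -0.77 to 0.08, limma adjusted p = 0.232). It was called without the second IL-4 plate library (-0.60, limma adjusted p = 0.0693) and in a limma fit with no trend (adjusted p = 0.153), and was -0.0919 without the first. In high-collagen gels it fell from 4.29 and 4.12 TPM to 2.72 and 2.47 TPM and in low-collagen gels from 2.11 and 1.78 TPM to 0.699 and 0.576 TPM. The 6 conditions did not overlap. The falls were -0.53 (SE 0.19, limma adjusted p = 0.103) in high-collagen gels, which was lost when any 1 of the 4 libraries was left out (adjusted p = 0.216 to 0.290), and -0.85 (SE 0.19, limma adjusted p = 0.0134) in low-collagen gels. The gene lies at chr9:58524298-58555437 on the minus strand, and Gm10657 overlaps it on the other strand, as A930007I19Rik does Pdcd1lg2 and AC119228.1 does Cd274.

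**Figure D3:**
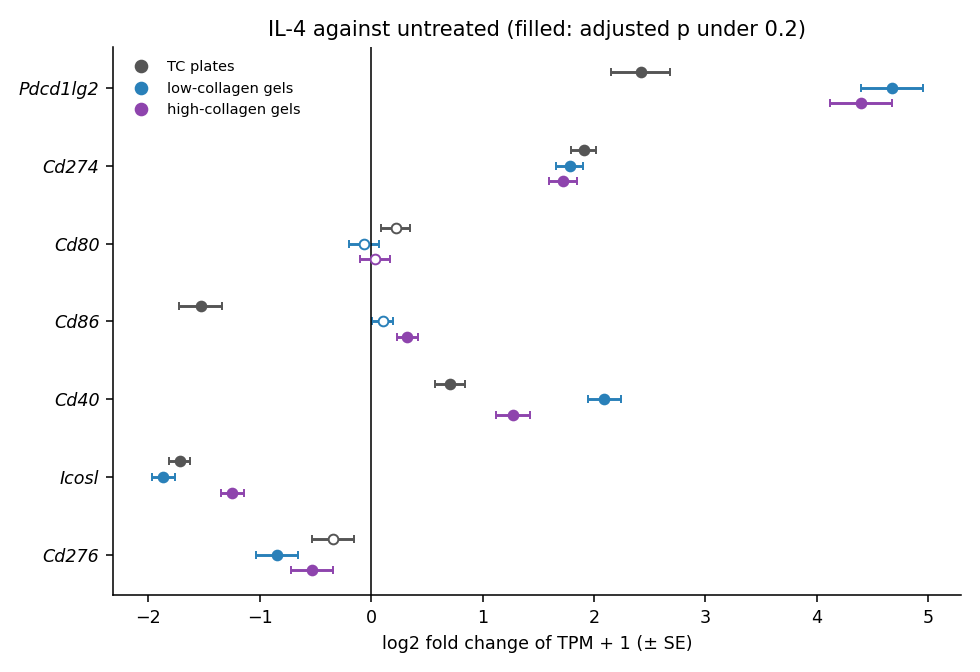
Log2 fold change of TPM + 1 with IL-4 against untreated (x axis, ± SE) for each gene (y axis) on TC plates, in low-collagen gels and in high-collagen gels; filled points passed a limma adjusted p under 0.2. Pdcd1lg2, Cd274 and Cd40 lie above 0 and Icosl below 0 on all 3 substrates, and Cd86 lies at -1.53 on plates and at 0.10 and 0.32 in gels.

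High- and low-collagen gels, which also differ in stiffness and pore size, differed in Cd40, Icosl, Cd276 and Cd86 in the presence of IL-4. They did not differ detectably in the PD-1 ligands or Cd80. With IL-4, 4 of the 7 genes were called between high- and low-collagen gels, where 21.1% of all genes were. Of these 3 were higher and 1 lower in high collagen, beside 14.1% and 6.99% of all genes (10.5% and 11.1% after rescaling), and the ranges did not overlap for 6 of 7, beside 55.5%. Cd276 was higher in high collagen by 1.13 on the log2 scale (SE 0.19, limma adjusted p = 0.0235), Icosl by 0.76 (SE 0.10, limma adjusted p = 0.0143) and Cd86 by 0.41 (SE 0.09, limma adjusted p = 0.04996), whereas Cd40 was lower, at -0.81 (SE 0.15, limma adjusted p = 0.0300). The call for Cd86 was lost without the second low-collagen IL-4 library (adjusted p = 0.234) and with all 12 libraries in the limma fit (adjusted p = 0.220). Pdcd1lg2 differed by -0.34 (95% interval -0.98 to 0.31), Cd274 by 0.02 (-0.27 to 0.31) and Cd80 by 0.13 (-0.18 to 0.44), with limma adjusted p = 0.514, 0.931 and 0.607. Icosl ended lower and Cd40 higher after IL-4 in the gels with less collagen.

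Without IL-4 only Cd276 was called among the 7 genes, where 8.02% of all genes were, 3.23% higher and 4.79% lower in high collagen (3.96% and 3.62% after rescaling), and the ranges did not overlap for 3 of 7, beside 45.5%. It was higher in high collagen by 0.82 (SE 0.19, limma adjusted p = 0.102), and the call was lost without either high-collagen library or without the second low-collagen library (adjusted p = 0.268 to 0.301). The other 6 differed by -0.06 to 0.19, with limma adjusted p from 0.371 for Cd86 to 0.994 for Cd40. Tested directly, the difference between the IL-4 responses in high- and low-collagen gels was called by limma for 0 of the 7 genes, against 0.363% of all genes, 0.194% higher and 0.169% lower. At an unadjusted p under 0.05 it was 2 of 7, beside 9.88% of all genes, with Icosl at 0.62 (95% interval 0.28 to 0.96, limma adjusted p = 0.326) and Cd40 at -0.82 (-1.31 to -0.33, limma adjusted p = 0.350). With all 12 libraries in the fit Icosl was called, at an adjusted p of 0.182.

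**Figure D4:**
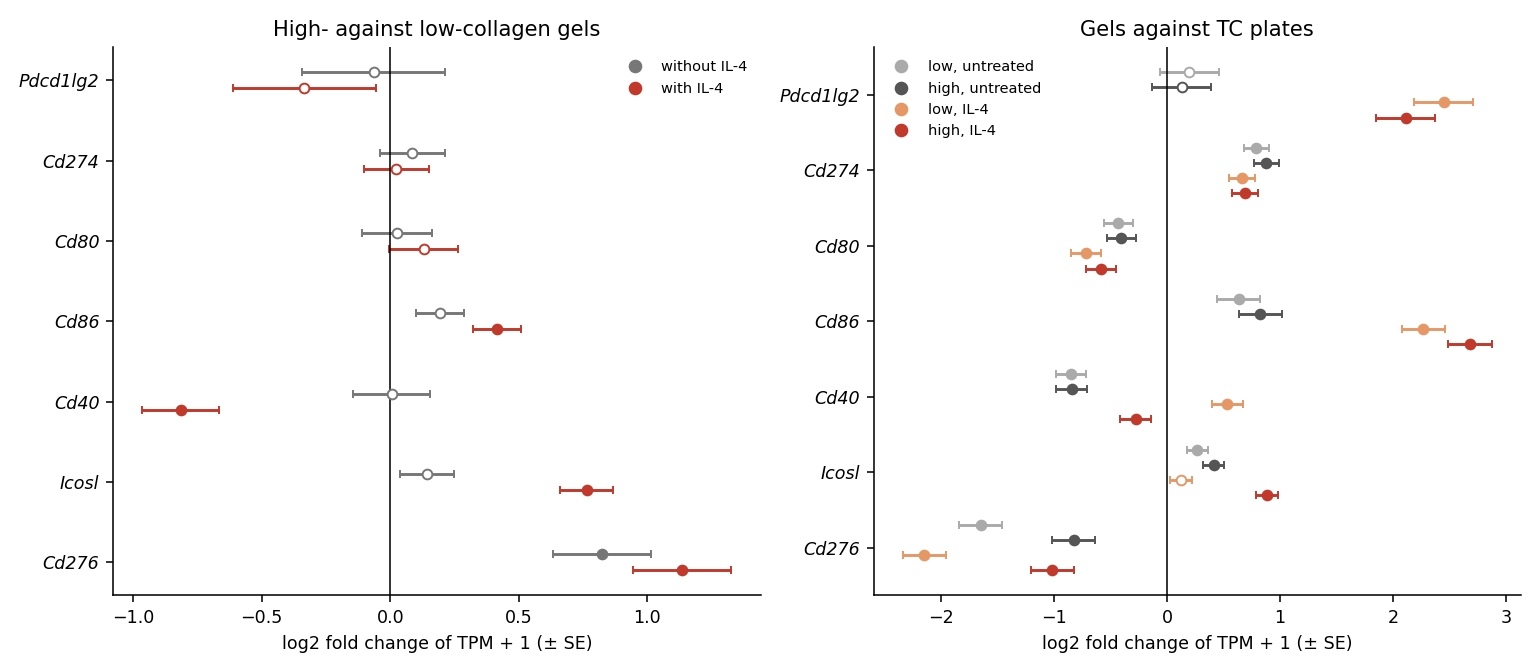
Log2 fold change of TPM + 1 (x axes, ± SE) for each gene (y axes) between high- and low-collagen gels (left, without and with IL-4) and between gels and TC plates (right, 4 comparisons); filled points passed a limma adjusted p under 0.2. With IL-4, Cd40 lies at -0.81 and Cd276 at 1.13 on the left, and Pdcd1lg2 and Cd86 lie above 2 in both gels on the right.

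The change from plate to gel reached most of the 7 genes, as it did most of the transcriptome. Untreated, 6 of 7 were called in low-collagen gels against plates, where 72.8% of all genes were. Of these 3 were higher and 3 lower, beside 28.5% and 44.3% (38% and 35.3% after rescaling). In untreated high-collagen gels 6 of 7 were called against 73.5%, 3 higher and 3 lower beside 28% and 45.5% (37.8% and 35.8% rescaled). With IL-4, 6 of 7 were called in low-collagen gels against 75.1%, 4 higher and 2 lower beside 22.8% and 52.2% (37% and 35.3% rescaled). In high-collagen gels with IL-4, 7 of 7 were called against 74.6%, 4 higher and 3 lower beside 26.5% and 48.1% (38.4% and 35.4% rescaled). The ranges did not overlap for 6, 6, 7 and 7 of the 7 genes in these comparisons, beside 78.8%, 80.8%, 80.9% and 80.8% of all genes. These comparisons share the plate libraries, and the counts lay near the background.

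Untreated cells in gels had more Cd274 and Cd86 and less Cd40 and Cd276 than on plates. Cd274 was higher by 0.79 in low and 0.88 in high collagen (limma adjusted p = 0.000192 and 9.04e-05) and Cd86 by 0.63 and 0.83 (0.0167 and 0.00401). Icosl was higher by 0.27 and 0.41 (limma adjusted p = 0.0332 and 0.00392). Cd40 was lower at -0.85 in both (limma adjusted p = 0.000395 and 0.000390), Cd276 at -1.65 and -0.83 (4.41e-05 and 0.00358) and Cd80 at -0.43 and -0.41 (0.0167 and 0.0220). The last Cd80 value was lost under quantile rescaling (-0.15, limma adjusted p = 0.304). Pdcd1lg2 differed by 0.19 and 0.13 near its lower end and was not called (limma adjusted p = 0.550 and 0.687).

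With IL-4, Cd86 and Pdcd1lg2 were higher and Cd276 was lower in both gels than on plates. Cd86 was higher in low-collagen gels by 2.27 and in high-collagen gels by 2.68 on the log2 scale (limma adjusted p = 6.72e-06 and 2.19e-06). Pdcd1lg2 was higher by 2.45 and 2.11 (limma adjusted p = 2.89e-05 and 7.06e-05). Cd274 was higher by 0.66 and 0.69, and Cd276 was lower at -2.15 and -1.02, as was Cd80 at -0.72 and -0.59 (limma adjusted p from 8.45e-06 to 0.00311). The gap of Cd276 in low-collagen gels was -3.11 with a pseudocount of 0.1. Cd40 was higher in low-collagen gels by 0.53 (limma adjusted p = 0.00633) and lower in high-collagen gels at -0.28 (limma adjusted p = 0.0982). That last call was lost without the first IL-4 library of either group and under median-ratio rescaling (-0.03, adjusted p = 0.864), and quantile rescaling turned it to 0.01. Icosl was higher in high-collagen gels by 0.88 (limma adjusted p = 2.82e-05) and differed by 0.12 in low-collagen gels (adjusted p = 0.295), which became a call when the median ratio was used (0.41, adjusted p = 0.00272). Rescaling by the median ratio moved the median of all genes up by 0.16 to 0.29 in the 4 plate comparisons and by 0.18 for IL-4 in low-collagen gels, so small changes there are relative to that shift.

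The IL-4 responses themselves were also compared between gels and plates. In low-collagen gels against plates 3 of 7 genes had a called difference of response, all higher in gels, where 28% of all genes were called, 9.3% higher and 18.7% lower (14.2% and 10.2% after rescaling). In high-collagen gels it was 4 of 7, all higher in gels, against 17.3%, 8.66% higher and 8.61% lower (11.1% and 7.06% rescaled). The response of Pdcd1lg2 was greater by 2.25 in low and 1.98 in high collagen (limma adjusted p = 0.00499 and 0.0119), and these calls were lost with a pseudocount of 0.1 (2.00 and 2.28, adjusted p = 0.311 and 0.322). The response of Cd86 was greater by 1.64 and 1.86 (limma adjusted p = 0.00518 and 0.00357) and that of Cd40 by 1.39 and 0.57 (0.00211 and 0.123), and Icosl fell less in high-collagen gels by 0.47 (adjusted p = 0.0720) and was not called without the second untreated plate library (adjusted p = 0.205). Cd276 had a response of -0.50 in low-collagen gels against plates that was not called, but became a call in the lower direction with a pseudocount of 0.1 (-1.08, limma adjusted p = 0.0832), with no trend (adjusted p = 0.192), under quantile rescaling (-0.62, adjusted p = 0.185) and without the first IL-4 plate library (-0.75, adjusted p = 0.108). The Cd40 value for high collagen was lost in 5 of the 8 fits that left out 1 library (adjusted p up to 0.311). These 2 sets of differences share the plate libraries and are given side by side only.

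**Figure D5:**
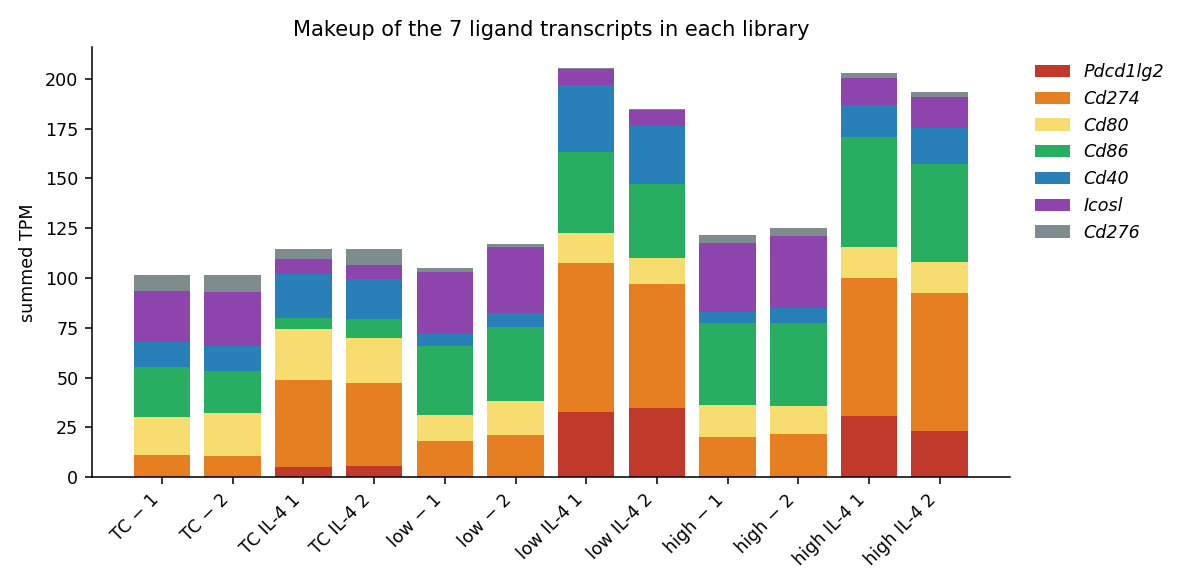
Summed TPM (y axis) of the 7 transcripts in each of the 12 libraries (x axis), stacked by gene; each bar starts at 0 and is 1 library. The sum is 101 to 125 TPM in untreated libraries, 114 to 115 TPM on plates with IL-4 and 185 to 206 TPM in gels with IL-4, and the Pdcd1lg2 and Cd274 segments are taller in every IL-4 bar than in the untreated bars of the same substrate.

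Per length, the order of the 7 transcripts changed with IL-4. On untreated plates Icosl led at a mean of 26.3 TPM, followed by Cd86, Cd80, Cd40, Cd274, Cd276 and Pdcd1lg2. In both untreated gels Cd86 led, followed by Icosl, Cd274, Cd80, Cd40, Cd276 and Pdcd1lg2. With IL-4, Cd274 led on all substrates and made 35.0% to 37.2% of the summed means. In both IL-4 gels the order was Cd274, Cd86, Pdcd1lg2, Cd40, Cd80, Icosl and Cd276, and on IL-4 plates it was Cd274, Cd80, Cd40, Cd86, Icosl, Cd276 and Pdcd1lg2. The summed level of the 7 was 101 to 125 TPM in the untreated libraries, 114 and 115 TPM on IL-4 plates and 185 to 206 TPM in IL-4 gels.

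The genes whose log2(TPM + 1) ran most like each member over the 12 libraries were taken from the 9634 genes with a mean of at least 5 TPM, by Pearson's r. Pdcd1lg2 ran closest to Gm8113 (r = 0.986), Furin (0.984) and Rnase4 (0.982), Cd274 to Smap2 (0.988), A930018M24Rik (0.985) and Ptgs1 (0.985), and Cd40 to Ppib (0.979), Prps1 (0.977) and Ctsz (0.974). Icosl ran closest to Slc11a1 (0.985), Ik (0.984) and Slc40a1 (0.984), Cd86 to Lamp2 (0.972), Ggh (0.969) and BC028528 (0.968), Cd80 to Mapk1ip1l (0.971), Abl2 (0.968) and Ski (0.964), and Cd276 to Pomt2 (0.979), Cyfip2 (0.9748) and Extl3 (0.971). Within the 7, r was 0.94 between Pdcd1lg2 and Cd274, -0.92 between Icosl and Cd40 and -0.87 between Cd80 and Cd86. The libraries fall into 6 conditions, so these values describe shared condition patterns and carry no test.

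Other molecules of the same interface were taken from fixed lists. With IL-4, 13.2% of all tested genes rose and 40.4% fell in low-collagen gels, 11.5% and 22.8% in high-collagen gels, and 14.7% and 24% on plates, with median log2 changes over all genes of -0.19, -0.10 and -0.06, and the counts below are to be read beside these shares. Of 7 further B7 and butyrophilin genes only Vsir was tested, which encodes VISTA, an inhibitory ligand. It was more abundant than any of the 7 genes, at 129 to 135 TPM on untreated plates and 431 to 508 TPM in untreated gels, and it fell with IL-4 by 0.34 on plates, 0.61 with low collagen and 0.40 with high collagen (limma adjusted p = 0.00187, 0.000319 and 0.00396). It was higher in gels than on plates by 1.49 to 1.91 on the log2 scale in all 4 comparisons. The others, Vtcn1, Ildr2, Btn1a1, Btn2a2, Btnl2 and Btnl9, reached at most 0.739 TPM in any library.

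Of 8 TNF superfamily genes on the list, 4 were tested, and with IL-4 none rose and 3, 3 and 4 fell in low-collagen gels, high-collagen gels and on plates, respectively. Their median log2 changes were -0.88, -0.56 and -0.995, beside 40.4%, 22.8% and 24% of all genes lower. Under either rescaling 3 fell on each substrate. Tnfsf9, which encodes the 4-1BB ligand, fell by 2.31 on plates, and Tnfsf14, which encodes LIGHT, fell by 1.17 in low-collagen gels (limma adjusted p = 1.34e-05 and 0.0101). Tnfrsf14, the receptor that binds LIGHT and BTLA, was higher in untreated gels than on plates by 1.79 and 2.03 (limma adjusted p = 1.80e-05 and 6.95e-06).

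Among 11 other inhibitory and adhesion ligands 9 were tested, and with IL-4 3 rose and 2 fell in low-collagen gels, 4 rose and 1 fell in high-collagen gels, and 1 rose and 5 fell on plates. Over all genes 13.2%, 11.5% and 14.7% rose and 40.4%, 22.8% and 24% fell. The medians of the list were 0.08, 0.05 and -0.20, and under median-ratio rescaling 6 rose and 1 fell in low-collagen gels. Lgals3, which encodes galectin-3, rose by 1.37, 1.34 and 0.96 (limma adjusted p = 7.11e-06, 1.24e-05 and 3.31e-06). Nectin2, a ligand of TIGIT and CD226, fell with IL-4 on plates and not in gels, as Cd86 did, but with smaller values. It fell on plates by 0.87 (limma adjusted p = 0.000238), where Cd86 changed by -1.53. In low- and high-collagen gels Nectin2 was not called with IL-4 (0.08 and 0.01), whereas Cd86 was not called at 0.10 and called at 0.32. Either rescaling called a rise of Nectin2 in low-collagen gels (0.27, limma adjusted p = 0.0993 and 0.108). Nectin2 was higher in IL-4 gels than on IL-4 plates by 1.98 and 2.53 (limma adjusted p = 4.73e-07 and 9.08e-08). Without IL-4 it was already 29.3 and 26.2 TPM in high-collagen gels, 18.1 and 17.2 TPM in low-collagen gels and 8.45 and 7.81 TPM on plates.

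All 15 genes of CD40 signalling and NF-kB were tested. With IL-4, 3 rose and 7 fell in low-collagen gels, 3 rose and 5 fell in high-collagen gels, and 4 rose and 9 fell on plates, with medians of -0.18, 0.06 and -0.32. In gels these counts lay near the shares of all genes, 13.2% higher and 40.4% lower with low collagen and 11.5% and 22.8% with high collagen, and they depended on the scale, since median-ratio rescaling gave 4 up and 2 down with low collagen and 6 up and 2 down with high collagen. On plates, where 14.7% of all genes rose and 24% fell, it gave 4 up and 8 down. Traf5, an adaptor of CD40, rose by 0.69 and 0.50 in low- and high-collagen gels and by 1.07 on plates (limma adjusted p = 0.0244, 0.107 and 0.0114). Traf1 and Relb fell on plates by 1.96 and 1.10 (limma adjusted p = 0.000373 and 0.000401). Birc3, an NF-kB target that regulates TRAF proteins, was higher in gels than on plates by 1.40 to 1.85 in all 4 comparisons.

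All 9 regulators of ligand transcription or surface amount were tested, and with IL-4 0 rose and 7 fell in low-collagen gels, 0 rose and 5 fell in high-collagen gels, and 1 rose and 4 fell on plates. Over all genes 13.2%, 11.5% and 14.7% rose and 40.4%, 22.8% and 24% fell. The medians of the list were -0.48, -0.23 and -0.24, and after median-ratio rescaling 4, 3 and 4 of the 9 fell. Cmtm6, which keeps PD-L1 protein at the cell surface, fell by 0.63 and 0.50 in low- and high-collagen gels (limma adjusted p = 0.000301 and 0.00151), where Cd274 rose, and differed by 0.0166 on plates (adjusted p = 0.892). Irf1 and Il4ra, the IL-4 receptor chain, were higher in gels than on plates by 1.09 to 1.23 and by 0.66 to 0.81.

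Of 10 receptors and partners of these ligands 3 were tested, and Pdcd1, which encodes PD-1, and Cd40lg were listed at 0 in all 12 libraries. Cd28 was present at 43.5 to 90.02 TPM and rose with IL-4 in high-collagen gels by 0.46 and on plates by 0.19 (limma adjusted p = 0.00387 and 0.0828). With IL-4, 0 rose and 1 fell in low-collagen gels, 1 rose and 0 fell in high-collagen gels, and 1 rose and 1 fell on plates. The medians were -0.09, 0.04 and 0.06, beside 53.6%, 34.3% and 38.8% of all genes called. The low-collagen count depended on the scale, with 1 up and 0 down under median-ratio rescaling and 0 and 0 under quantile rescaling. Havcr2, which encodes TIM-3, was lower in gels than on plates at -0.86 to -1.23 in the 4 comparisons.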

How the data were processed

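RNA from 12 libraries of mouse bone marrow-derived macrophages was sequenced by the authors as stranded, poly(A)-selected mRNA. Per the labels and the study's methods, reads were quantified with kallisto 0.46.1 on the GRCm38 transcriptome, and the authors deposited a single table of TPM per gene, with no counts or depth; how transcripts were joined into genes is not given in the sources used here. Of 34456 lines, 129 repeated a symbol with identical values and were collapsed. Genes with a mean of at least 1 TPM were tested with limma 3.58.1 in R 4.3.3 on log2(TPM + 1), fitting group means with a trend of variance on level, and p-values were adjusted over all genes by Benjamini-Hochberg. Gel comparisons used the 8 gel libraries (11852 genes) and plate comparisons all 12 (11865 genes). On simulated data with 200 changed genes of 11852 for IL-4 in low-collagen gels, 97% of 4-fold and 92% of 2-fold changes were called and 17.8% of calls were false. The simulation changed a far smaller share of genes than the 53.6% called in the data, so its rates need not hold for them. limma offset genes with no variance among replicates.

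Fold changes are on the log2(TPM + 1) scale and understate the change of low genes. The labels number replicates 1 and 2 and do not say whether they are separate animals, so p-values measure only the spread between these samples, which may be technical. No 2 libraries held identical values. Same-numbered libraries did not deviate together (r from -0.123 to 0.109 over 15 pairs of conditions, 1 above 0.1), so the numbers were not taken as pairs. The members and gene lists were chosen with earlier results of these data known. The genes named beside the members are at most the 2 called genes of each list with the largest change in a comparison, and the 3 genes most like each member. Some genes that this rule or the marker lists name are not reported here. Gene positions are from GENCODE and promoters from RefSeq. Cd28, Ctla4 and Itgam had 2 identifiers each, and only the one bearing that symbol in GENCODE was used. Of the 31-base words in the members' transcripts, 0% to 2.98% also occur in other genes. Alternatives were a pseudocount of 0.1, no filter or a mean of 5 TPM, no trend, median-ratio or quantile rescaling, other sets of libraries in the fit, other thresholds, a replicate block and each library left out in turn. Both rescalings of the list counts were added after seeing the data.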

Additional observations from a re-analysis of the deposited data

Results flagged for a closer look

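The IL-4 responses of several genes differed between gels and plates by a limma test of the difference itself on log2(TPM + 1). In low-collagen gels against plates the response was greater for Pdcd1lg2 by 2.25 (limma adjusted p = 0.00499), for Cd86 by 1.64 (0.00518) and for Cd40 by 1.39 (0.00211). In high-collagen gels against plates it was greater for Pdcd1lg2 by 1.98 (limma adjusted p = 0.0119), for Cd86 by 1.86 (0.00357) and for Cd40 by 0.57 (0.123), and Icosl fell less, by 0.47 (0.0720). Both sets rest on the same 4 plate libraries. The Pdcd1lg2 calls were lost with a pseudocount of 0.1 (2.00 and 2.28, limma adjusted p = 0.311 and 0.322). With each library left out in turn, the high-collagen values ran from 0.40 to 0.73 for Cd40 and from 0.37 to 0.57 for Icosl. Some of these fits lost the call. Cd86 fell by 1.53 on plates. It was called at 0.32 in high-collagen gels, a call lost with all 12 libraries in the fit (limma adjusted p = 0.273) and without the first IL-4 library (0.24, adjusted p = 0.266), and was not called at 0.10 in low-collagen gels. Of 8 macrophage markers 6, Lyz2 among them, were lower with IL-4 on plates and in both gels and 2, Adgre1 and Cd68, were higher, and their part in these differences was not tested.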

How the results depend on the processing

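TPM carry no depth, so counting error could not be set against any value, and with 2 libraries a group each call rests on a spread shared across genes. Of 184 recomputed counts of called members 168 stayed within 1.5 times the reported count and 16 did not, and of 1273 recomputed log2 changes 1170 kept their direction and call, 58 lost the call, 15 gained one and 30 changed sign, most of them small values. The cause of these changes was not tested beyond what each setting itself removes. Requiring a 2-fold change left 1 called member for high against low collagen with IL-4 and 0 without IL-4, 1 and 0 for untreated low- and high-collagen gels against plates, 3 and 3 for the same gels with IL-4, and 2 for the IL-4 response in high-collagen gels against plates. An adjusted p under 0.05 left 0 for collagen without IL-4 and 2 for that response. A mean of at least 5 TPM, which removes Cd276 from testing, and a fit of only the compared libraries also left 0 for collagen without IL-4, and all 12 libraries in the fit gave 1 (Icosl) for the interaction of collagen and IL-4.

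Signs turned under other scales for values that were not called. Median-ratio and quantile rescaling gave 0.12 and 0.14 for Cd80 with IL-4 in low-collagen gels, and -0.0473 and -0.0179 for Cd274 between collagens with IL-4. Quantile rescaling gave -0.0813 and -0.0961 for Pdcd1lg2 in untreated low- and high-collagen gels against plates, median-ratio rescaling 0.0259 for the Cd274 response in low-collagen gels against plates, and a pseudocount of 0.1 gave 0.28 for the Pdcd1lg2 interaction. The called fall of Cd40 in high-collagen gels against plates with IL-4 also turned, to 0.00729 under quantile rescaling.

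Leaving out each library in turn gave 0 to 1 called members for collagen without IL-4, and 2 to 4 for the IL-4 response in high-collagen gels against plates, the 2 without the second untreated plate library. Members whose sign turned were Cd80 with IL-4 in low-collagen gels (-0.23 to 0.10) and in high-collagen gels (-0.0381 to 0.11), and Cd274 between collagens with IL-4 (-0.11 to 0.16). Between collagens without IL-4 they were Pdcd1lg2 (-0.45 to 0.32), Cd274 (-0.0418 to 0.21), Cd80 (-0.14 to 0.19) and Cd40 (-0.16 to 0.17). For the interaction in gels they were Pdcd1lg2 (-0.66 to 0.12), Cd274 (-0.20 to 0.0717) and Cd80 (-0.0610 to 0.27). Against plates they were Pdcd1lg2 in untreated low-collagen (-0.0177 to 0.41) and high-collagen gels (-0.26 to 0.52), the Cd274 response in low-collagen gels (-0.26 to 0.00691) and the Cd276 response in high-collagen gels (-0.44 to 0.0689). Fitting the replicate number as a block changed no count, with 5, 6 and 5 called members for IL-4 in low-collagen gels, high-collagen gels and on plates, and no call of a member.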
